A study of Mus musculus with 16 samples.

Results

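The chains described here are those of collagen IV and laminin that form basement membranes, namely the collagen IV genes Col4a1 and Col4a2 and the laminin genes Lama2, Lama4, Lamb1 and Lamb2. These 6 genes were taken by symbol from tables of RNA sequencing of sorted mouse hepatic stellate cells (HSCs). All 6 had a row among the 5716 rows of quiescent HSCs (qHSCs). Lama2 alone had a row among the 123 rows with a gene name for GFP-high activated HSCs (aHSCs), and none of the 6 had one among the 419 such rows for GFP-intermediate aHSCs.

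The series held 16 samples of C57/Bl6 animals. The 6 qHSC samples came from 3 uninjured adult WT1CreERT2;Ai14 animals, in which the tamoxifen-inducible Cre at the WT1 locus was induced at E10.5. Cells that expressed WT1 then, and their descendants, carry red fluorescent protein (RFP), and from each animal an RFP-positive (lineage label-positive) and an RFP-negative (lineage label-negative) sample was sorted after density centrifugation. The label-negative fraction is therefore defined only by the lack of RFP, and every animal carried the same Cre and reporter alleles. On the sex of the qHSC animals the sources differ, male in the labels and female in the methods. The 10 aHSC samples were RFP-positive cells of 6 male animals given carbon tetrachloride for 8 weeks, of the genotypes PDGFRbCre;WT1_fl_GFP;Ai14 (WT1-deleted) and PDGFRbCre;WT1_+_GFP;Ai14 (control). A WT1 allele reports GFP in both genotypes, so the controls hold 1 wild-type WT1 allele beside it, and the constitutive PDGFRβ-driven Cre acts in every cell type that expresses PDGFRβ. GFP-high cells gave 3 samples of each genotype. GFP-intermediate cells, labelled low, gave 2 of each, and 1 of these control samples pooled 2 animals. Of the 6 aHSC animals 5 gave cells to both GFP fractions, so the 2 aHSC comparisons share animals. Values for the deleted gene were not analysed here.

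For each gene the authors deposited 1 FPKM per group. FPKM is the number of sequenced fragments divided by transcript length and by the size of the library, so levels can be compared between genes of different length. No value per sample was used here, the depth is unknown, and no spread between animals can be attached to any level, ratio or difference below. Pairs of values are given with the label-negative fraction first in qHSCs and with control first in aHSCs. The rows are the genes that the authors' own comparison called at an adjusted p-value below 0.05, and a gene without a row may be expressed at any level. In bulk samples such as these, a lower share of one cell type and less RNA per cell cannot be told apart.

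The labelled cell type was checked against its markers. Of 22 genes typical of quiescent stellate cells, 11 had a row, and their summed FPKM was 151 and 109, with Dcn the highest at 109 and 49.0. Lrat, Reln, Des and Gfap, which define quiescent stellate cells, had no row, and Pdgfrb was listed at 0.905 and 0.370. All 21 genes typical of liver sinusoidal endothelial cells had a row, all were higher in label-positive qHSCs, and their summed FPKM was 6281 and 17086.5. All 12 lymphocyte genes were lower in label-positive qHSCs, with a summed FPKM of 1371 and 50.2, and all 10 hepatocyte genes were higher, with 187 and 1602. Of 12 macrophage genes, 10 had a row, 7 of them higher and 3 lower, with a summed FPKM of 1658 and 960.1, of which Lyz2 made up 1283 and 289. Over all rows of qHSCs 50.4% were higher in the label-positive fraction. In both fractions the summed level of the endothelial markers was thus far above that of the stellate markers with a row. The median FPKM was 268 and 791 for the 21 endothelial rows and 1.24 and 1.09 for the 11 stellate rows. The stellate sum and median leave out 11 genes without a row, which may be expressed at any level. Sums and medians of the listed rows therefore cannot say which cell type gave more RNA. The chain levels below are those of the whole sorted fractions. The part of these other cell types in the differences described below was not tested.

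Basement membranes are thin sheets of matrix under epithelia and endothelia and around muscle, fat and nerve cells. Collagen IV chains wind into triple helices that join into a network, and the common form combines chains from Col4a1 and Col4a2. Laminins are cross-shaped trimers of an alpha, a beta and a gamma chain, which are bound by integrins and dystroglycan on cells, and the trimer is named by its chains. In the liver, sinusoids lack a continuous basement membrane, and stellate cells in the space of Disse lie against the endothelium and contribute matrix to it.

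Col4a1 and Col4a2 lie head to head on chromosome 8. In the GENCODE vM21 annotation of GRCm38, Col4a1 spans chr8:11198423-11312826 on the minus strand and Col4a2 spans chr8:11312805-11449287 on the plus strand, so that their first exons share 22 bases, and the sources used here do not say whether reads there were counted by strand. The other members are Lama2 at chr10:26980036-27619758 on the minus strand, Lama4 at chr10:38965515-39110188, Lamb1 at chr12:31265234-31329644 and Lamb2 at chr9:108479736-108490530, all on the plus strand. RefSeq promoter windows of 300 bases, 250 before the start of a transcript and 50 from it on, were found for 5 members, all but Lama4. The windows were searched on both strands for the letters of the GC box (GGGCGG), the CCAAT box (CCAAT), the TATA box (TATAAA) and the shared consensus of EGR factors and WT1 (GCGGGGGCG). The following stretches are shown 5′ to 3′ on the strand of the gene, with matches to these letters in capitals, because they hold the shared start of the collagen IV genes and sequence near the RefSeq starts of laminin genes that differ in direction. The Lamb2 stretch ends just before the GENCODE start, and the Lama2 stretch lies inside the GENCODE gene because the RefSeq start used is further downstream. The build is GRCm38.p6.
Col4a2, shared start with Col4a1, chr8:11312801-11312830, plus strand: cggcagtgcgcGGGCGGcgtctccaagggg
Lamb1, chr12:31265203-31265232, plus strand: tgtcctCCGCCCcctCCGCCCCCGCtctcc
Lama2, chr10:27616908-27616937, minus strand: tcacccacccttGGGCGGtggcagggcaga
Lamb2, chr9:108479612-108479735, plus strand: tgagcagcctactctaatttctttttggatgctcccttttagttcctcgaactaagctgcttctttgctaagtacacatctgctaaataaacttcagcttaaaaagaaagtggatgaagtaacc

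The GC box between the collagen IV genes stands inside the 22 shared bases, at chr8:11312812-11312817, and so counts for both. Col4a2 had 2 further GC boxes, starting 192 and 48 bases before its start, and a CCAAT box starting 32 bases before it. Col4a1 had a CCAAT box whose first base lies 145 bases before its start. In Lamb1 the capitals mark 2 GC boxes on the opposite strand, the second of which overlaps the only GCGGGGGCG of the 5 windows. Lama2 had 1 GC box, just after its RefSeq start. The Lamb2 window held none of the 4 motifs, and none of the 5 windows held TATAAA. Of 32851 RefSeq mouse windows, 35.7% held a GC box, 37.4% a CCAAT box, 13.6% a TATA box and 2.91% the EGR and WT1 letters. The GC content was 74.0% in the Col4a1 window, 73.7% in Col4a2, 63.7% in Lamb1, 50.3% in Lama2 and 44.0% in Lamb2, beside a median of 52.7% over all windows. A match describes letters and not a bound site.

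The question of the qHSC comparison is how cells of mesothelial descent differ from the other cells of the same isolate. Of the 6 chains, 4 were higher and 2 lower in lineage label-positive qHSCs, where 50.4% of all rows were higher. Both collagen IV chains, Lama4 and Lamb2 were 2.55- to 3.13-fold higher, and Lamb1 and Lama2 were 4.54- and 6.02-fold lower. All 6 differed at least 2-fold. Among all rows 37.7% were at least 2-fold higher and 43.5% at least 2-fold lower, so a difference of this size is usual in the table.

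**Figure D1:**
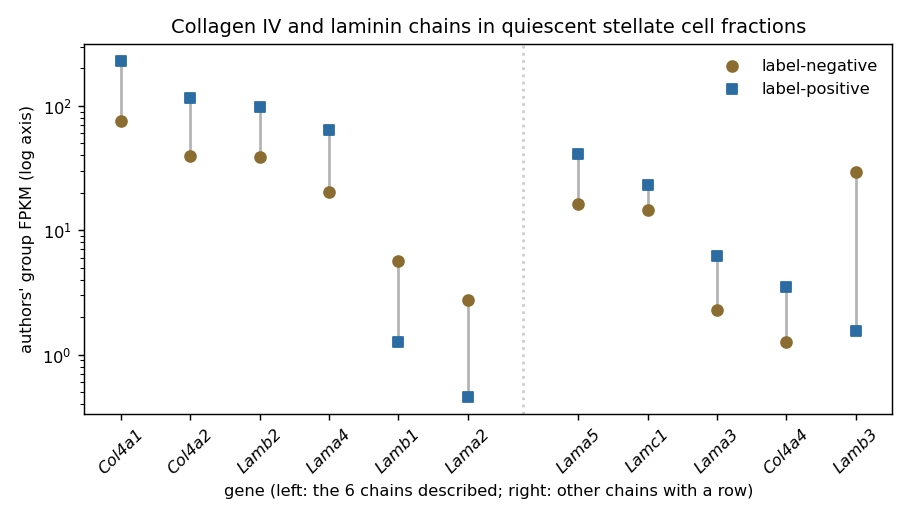
Authors' group FPKM (log axis) of the 6 chains, left of the dotted line, and of the 5 other collagen IV and laminin chains with a row, right of it, in label-negative (circles) and label-positive (squares) qHSCs. Col4a1 has the highest level in both fractions, at 75.8 and 230.3, and the order of the 2 points is turned for Lamb1, Lama2 and Lamb3.

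Col4a1, which encodes the alpha 1 chain of collagen IV, had an FPKM of 75.8 without the lineage label and 230.3 with it. This is 3.04-fold higher in label-positive cells, a log2 ratio of 1.60. By level it ranked 590 of 5716 rows without the label and 211 with it. Col4a2, which encodes the alpha 2 chain, had an FPKM of 39.2 and 115. The ratio was 2.92-fold, a log2 ratio of 1.55, which differs from that of Col4a1 by 0.06.

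Lama4 encodes the alpha 4 chain, a laminin chain typical of the basement membrane of blood vessels. Its FPKM was 20.3 without the label and 63.5 with it, 3.13-fold higher, with a log2 ratio of 1.65 that was the highest of the 6. Lamb2 encodes the beta 2 chain, known from the kidney glomerulus and the nerve-muscle synapse. It had an FPKM of 38.6 and 98.2, 2.55-fold higher, with a log2 ratio of 1.35 that became -0.096 relative to the median of the endothelial markers. The 4 chains higher in label-positive qHSCs thus lay within 0.30 of each other on the log2 scale, although their levels in those cells spanned 63.5 to 230.3.

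Lama2 encodes the alpha 2 chain, which is known from muscle and peripheral nerve. It was the least abundant of the 6, with an FPKM of 2.75 without the label and 0.456 with it. The level in label-negative cells was 6.02-fold that in label-positive cells, a log2 ratio of -2.59. Lamb1 encodes the beta 1 chain, a widespread beta chain of laminins. Its FPKM was 5.68 and 1.25, 4.54-fold higher in label-negative cells, with a log2 ratio of -2.18. These 2 chains ranked 4007 and 3352 of 5716 in label-negative cells, so that the pair with the larger factor was also the pair with the lower levels.

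**Figure D2:**
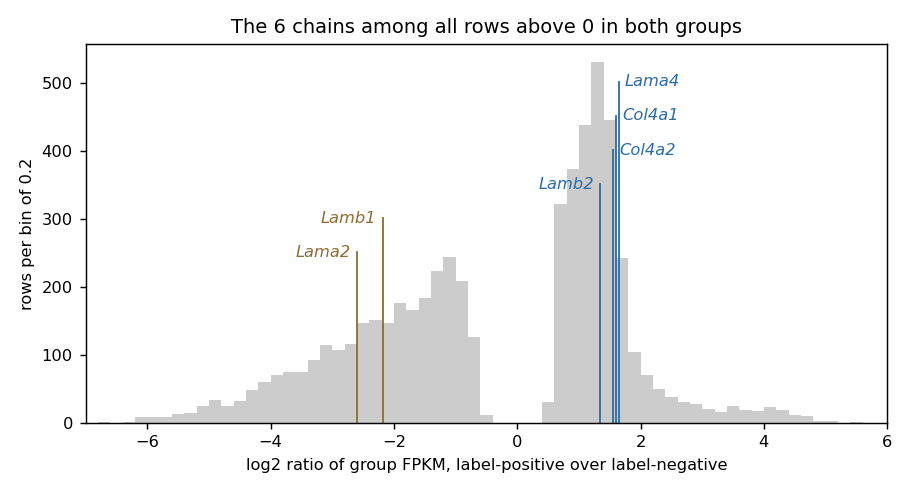
Number of rows in bins of 0.2 on the log2 scale, for the 5584 rows above 0 in both groups, with the log2 ratio of group FPKM (label-positive over label-negative) on the x axis and a line at each of the 6 chains. The line heights only separate the names, the gap around 0 is empty because genes without a call have no row, and Lamb2, Col4a2, Col4a1 and Lama4 stand between 1.35 and 1.65 in the right-hand peak.

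Of the 5584 rows above 0 in both groups the median log2 ratio was 0.64, with quartiles of -1.97 and 1.32. The ratio of Lama4 was above that of 88.4% of them, that of Col4a1 above 87.0%, that of Col4a2 above 85.3% and that of Lamb2 above 76.0%. Lamb1 stood above 22.2% and Lama2 above 16.7%. None of the 6 was at an extreme of the table.

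The collagen IV pair nearly kept its ratio between the fractions, and the laminin alpha and beta pairs did not. Each of these laminin pairs joined a chain higher with the label to a chain lower with it. The ratio of Col4a1 to Col4a2 was 1.93 without the label and 2.01 with it, a change of 1.04-fold. The ratio of Lama4 to Lama2 was 7.38 and 139, a change of 18.9-fold or 4.24 on the log2 scale. The ratio of Lamb2 to Lamb1 was 6.79 and 78.4, a change of 11.5-fold or 3.53 on the log2 scale. In both fractions Lama4 was therefore the more abundant of these alpha chains and Lamb2 of these beta chains, and both leads were wider in label-positive cells. The size of the leads in label-positive cells rests on the low values of Lama2 and Lamb1, and with a pseudocount of 1 they were 44.3 and 44.0.

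**Figure D3:**
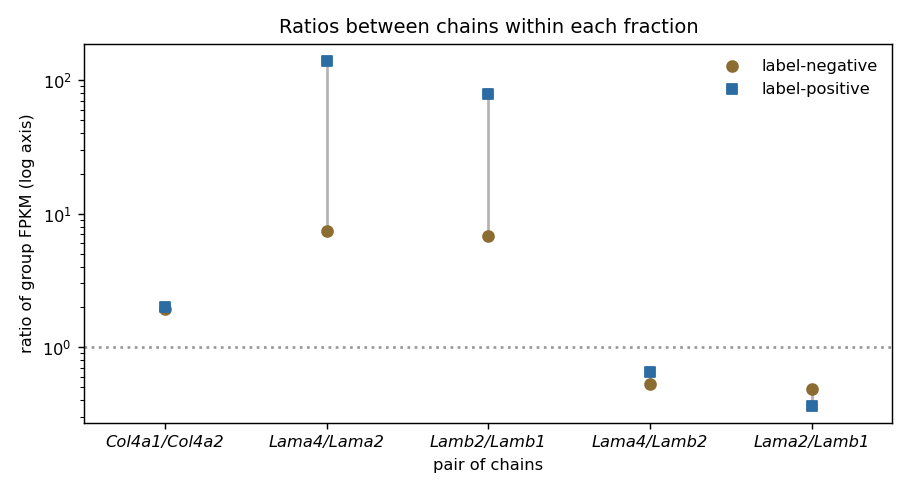
Ratio of group FPKM (log axis) for 5 pairs of chains in label-negative (circles) and label-positive (squares) qHSCs, with a dotted line at 1. The Col4a1/Col4a2 points coincide near 2, whereas Lama4/Lama2 and Lamb2/Lamb1 stand at 7.38 and 6.79 without the label and at 139 and 78.4 with it.

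The ratios within the pairs of laminin members with the same direction differed less between the fractions. The ratio of Lama4 to Lamb2 was 0.526 without the label and 0.646 with it. That of Lama2 to Lamb1 was 0.483 and 0.364. The latter rests on low values, and with a pseudocount of 1 its direction was turned, at 0.561 and 0.646. The sum of the collagen IV members was 1.71 times that of the 4 laminin members in label-negative and 2.11 times in label-positive qHSCs. Lamc1, the gamma chain found in most laminins, had an FPKM of 14.6 and 23.3, a log2 ratio of 0.68. Lamc1 was higher with the label by a smaller factor than Lama4 and Lamb2, so that the ratio of Lama4 to Lamc1 was 1.39 and 2.72 and that of Lamb2 to Lamc1 was 2.65 and 4.22.

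Of 11 further collagen IV and laminin chains, 5 had a row, 4 of them higher and 1 lower in label-positive qHSCs, where 50.4% of all rows were higher. The median log2 ratio of the 5 was 1.34, beside 0.64 over all rows. Lama5, an alpha chain of adult vessels and epithelia, had an FPKM of 16.3 and 41.2, Lama3 had 2.28 and 6.19, and Col4a4 had 1.27 and 3.47. Lamb3, a beta chain known from epithelia, went the other way, with an FPKM of 29.5 and 1.54 and a log2 ratio of -4.26. Among the beta chains with a row, Lamb2 made up 52.3% of the summed FPKM without the label and 97.2% with it, Lamb1 7.70% and 1.24%, and Lamb3 40.0% and 1.52%. Among the alpha chains with a row, Lama4 made up 48.8% and 57.0%, Lama5 39.1% and 37.0%, Lama3 5.47% and 5.56%, and Lama2 6.61% and 0.410%. The make-up of collagen IV hardly differed, with 65.2% and 66.1% Col4a1. These shares leave out chains without a row, among them Col4a3, Col4a5, Col4a6 and Lama1.

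**Figure D4:**
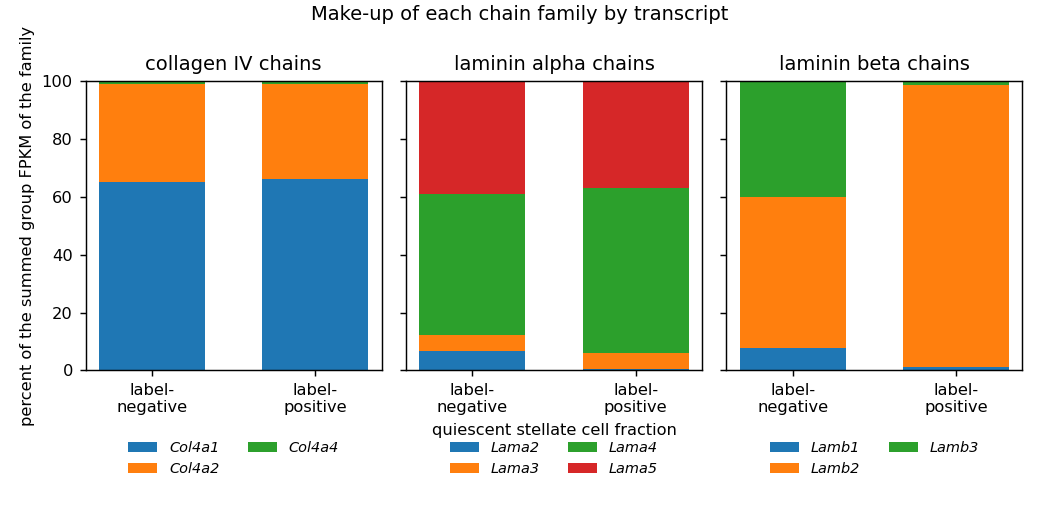
Percent of the summed group FPKM of each chain family taken by each gene with a row, in label-negative and label-positive qHSCs. The collagen IV bars are nearly alike, with 65.2% and 66.1% Col4a1, and Lamb2 fills 52.3% of the beta chain bar without the label and 97.2% with it.

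Of 24 other structural genes of basement membranes 14 had a row, 9 higher and 5 lower in label-positive qHSCs, where 50.4% of all rows were higher, with a median log2 ratio of 1.26 beside 0.64 over all rows. Sparc, which binds collagen IV, had an FPKM of 358 and 1079. Tinagl1 had 244 and 670, the perlecan gene Hspg2 had 83.5 and 234, and Nid1, which links laminin to collagen IV, had 41.5 and 105. Ntn4, a laminin-related netrin, had the highest ratio, with 19.1 and 88.4 and a log2 ratio of 2.21. Hmcn2 had the lowest ratio, with 2.74 and 0.641 and a log2 ratio of -2.09. Col15a1, a collagen of the basement membrane zone whose naming followed its value, was lower too, at 5.73 and 1.68.

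Of 21 receptor genes for collagen IV and laminin, 13 had a row, 9 higher and 4 lower in label-positive qHSCs, beside 50.4% higher over all rows, with a median log2 ratio of 1.22. Itgb1, the beta subunit shared by most matrix-binding integrins, had an FPKM of 171 and 296. Itga9 had 45.2 and 160.2 and the highest ratio, a log2 ratio of 1.82. Rpsa, a ribosomal protein also described as a laminin receptor, had 293 and 96.7, and Cd44, a hyaluronan receptor, had 85.2 and 16.3. Itga2, the alpha subunit of a collagen receptor, had the lowest ratio, with 2.08 and 0.109. Dag1, the gene of dystroglycan, named after its value was seen, had 26.6 and 62.1.

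Genes that fold, modify or cross-link collagen numbered 25, of which 13 had a row, 10 higher and 3 lower, again beside 50.4% higher over all rows, with a median log2 ratio of 1.19. The collagen chaperone gene Serpinh1 had an FPKM of 59.4 and 124, and the lysyl hydroxylase gene Plod1 had 43.3 and 102. Pxdn, which encodes the peroxidase that cross-links collagen IV, had 33.3 and 93.6 and the highest ratio of the list, a log2 ratio of 1.49. Loxl1, a lysyl oxidase of elastic fibres, had the lowest ratio, with 3.32 and 1.06. Of 21 genes for enzymes that cut these chains and for their inhibitors, 13 had a row, 8 higher and 5 lower, a share near the 50.4% over all rows, with a median log2 ratio of 0.90. The cathepsin genes Ctsl and Ctsb had an FPKM of 283 and 693 and of 193 and 361, Adamts1 had 69.4 and 225, whereas Mmp9, a gelatinase that cuts collagen IV, had 58.0 and 10.8. With a 2-fold minimum 5 were higher and 5 lower.

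The fibrillar and interstitial collagens, which do not build basement membranes, differed from the collagen IV chains in direction. Of 13 such genes 10 had a row, and 9 of the 10 were lower in label-positive qHSCs and 1 higher, beside 50.4% higher over all rows, with a median log2 ratio of -1.49 beside 0.64 over all rows. Col1a2 had an FPKM of 13.7 and 4.49, Col1a1 had 7.28 and 2.63, and Col6a1 had 7.20 and 2.52. Col5a2 was the exception, with 4.29 and 7.45, and it was under 2-fold higher. Lama2 and Lamb1 had log2 ratios below those of all 10, whose lowest was -1.84, that of Col11a2.

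**Figure D5:**
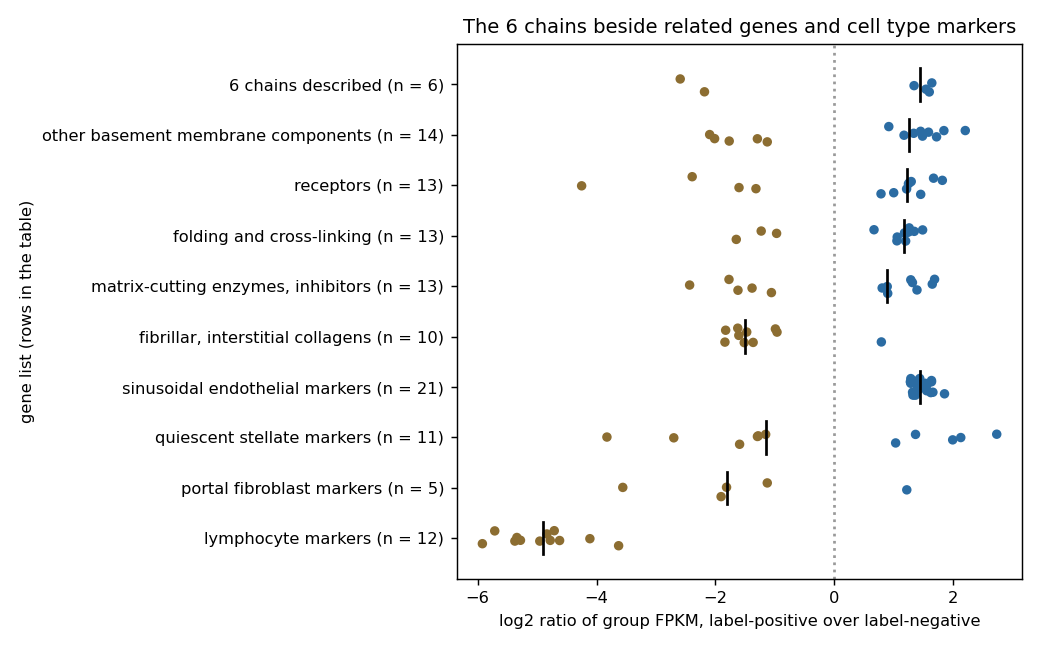
Log2 ratio of group FPKM (label-positive over label-negative) on the x axis for the rows of each gene list, with blue points higher and brown points lower in label-positive qHSCs and a black bar at the median. The 6 chains fall into 4 points near the sinusoidal endothelial markers, which span 1.28 to 1.86, and 2 points at -2.18 and -2.59, beyond the lowest fibrillar collagen and short of all lymphocyte markers.

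The chains were set beside the cell type markers that differed in the same direction. The log2 ratios of the 21 sinusoidal endothelial markers lay between 1.28 and 1.86, with a median of 1.44. Of the 6 chains, the 4 that were higher in label-positive qHSCs lay inside this span. So did 1045 rows, 18.7% of all those above 0 in both groups. Rows lower in label-positive cells cannot lie inside it, and 2883 of the 5716 rows were higher. Relative to the endothelial median, Col4a1, Col4a2 and Lama4 were higher in label-positive cells by 0.16, 0.10 and 0.20 on the log2 scale and Lamb2 was at -0.096. Of the 19 other chains and basement membrane components with a row, 9 lay inside the span. Markers of some other cell types with a row differed in the same direction, so the direction was not confined to the endothelial list. All 9 mesothelial markers with a row were higher in label-positive qHSCs, with a median log2 ratio of 1.43 and 5 of them inside the span. All 3 smooth muscle markers with a row were higher and inside the span, but Acta2, Tagln and Cnn1 had no row and Myh11 was at 0.0907 and 0.276. All 3 cholangiocyte and all 10 hepatocyte markers with a row were higher, with 1 of each list inside the span. The part of endothelial or other RNA in the levels of these chains was not tested.

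Lama2 and Lamb1 moved in the direction of most portal fibroblast markers with a row and of all lymphocyte markers. Part of the macrophage and stellate markers moved in this direction too. For comparison, 50.4% of all rows were higher in label-positive qHSCs. Of 15 portal fibroblast genes 5 had a row, and 4 of them were lower in label-positive qHSCs, with a summed FPKM of 259 and 233, of which Gas6, the gene that was higher, made up 87.2 and 204, and with Eln, Gli1, Cd34 and Entpd2 without a row. Thy1 had an FPKM of 106 and 9.02, but it is also a T cell gene. Pi16 had 32.6 and 8.71 and Clec3b had 22.1 and 6.30. The lymphocyte markers had log2 ratios from -5.92 to -3.63, all lower than those of Lama2 and Lamb1. Lamb3, at -4.26, lay within this range. Of the 11 quiescent stellate markers with a row, 6 were lower and 5 higher, a split near that over all rows. Dcn was lower and Hgf higher, at 44.1 in label-positive cells. Without the stellate markers below 1 FPKM in both fractions, 4 were lower and 3 higher. Among these, Vipr1 had the lowest ratio, with 15.3 and 2.35 and a log2 ratio of -2.70. Rgs5 had the highest, with 0.750 and 3.29 and a log2 ratio of 2.13. Of the 10 macrophage markers with a row 3 were lower and 7 higher, with log2 ratios from -2.15 for Lyz2 to 2.75 for Marco. The part of these cells in the lower levels of Lama2, Lamb1 and Lamb3 was not tested.

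For each chain the 3 rows closest to it were taken by the distance between log2 FPKM over the 2 groups, which is a likeness over 2 values only. Those of Col4a1 were Ackr1, Dusp3 and C1qtnf1, all within 0.057, and Ackr1 had an FPKM of 74.9 and 228. Those of Col4a2 were Ccnd1, Gja1 and Slfn5. Those of Lama4 were Plekhg1, Notch4 and Fmnl2, with Notch4, a Notch receptor of endothelium, at 20.9 and 61.7. Those of Lamb2 were Ces2g, Dynll2 and Myct1. Lama2 was closest to Slc35g1, Spns3 and Ms4a4d, and Lamb1 to D13Ertd608e, BC035044 and Cd300c, with Cd300c, a receptor of myeloid cells, at 6.12 and 1.18.

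The aHSC comparisons ask what changes when WT1 is deleted in injured animals. Lama2 was the only chain of the 6 with a row. In GFP-high aHSCs its FPKM was 0.0957 in control and 1.21 in WT1-deleted cells, higher after deletion, as were 77.2% of the rows with a gene name. The ratio was 12.7-fold, a log2 ratio of 3.67, beside a median of 1.83 over the 106 rows above 0 in both groups, among which it ranked 14. Its level after deletion ranked 94 of 123. Of the 123 rows 48 were below 1 in control cells, Lama2 among them, so the ratio rests on a low level. With a pseudocount of 1 the log2 ratio was 1.02. In the qHSC table Lama2 stood at 2.75 and 0.456, but the tables were normalised separately and their levels were not compared.

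Few related genes had a row in GFP-high aHSCs, where 77.2% of the rows with a gene name were higher after deletion. Of the basement membrane components, Hmcn2 was higher after deletion, at 0.0453 and 1.46, and so was Smoc1, at 0.123 and 0.602. Both were below 1 in control cells, so their ratios rest on low levels. Itga7, the alpha subunit of an integrin that binds laminins of muscle, was lower after deletion, at 70.1 and 26.8, with a log2 ratio of -1.39. Mmp2, a gelatinase that cuts collagen IV, was higher, at 16.9 and 91.4. None of the sinusoidal endothelial, stellate, macrophage or lymphocyte markers had a row in this table, while 2 of 15 portal fibroblast genes had, Dpt at 8.66 and 87.0 and Pi16 at 4.98 and 32.2. The smooth muscle gene Myh11, at 0.0570 and 0.468, and the hepatocyte gene Cps1, at 0.233 and 1.20, were higher as well, again from below 1 in control cells. The part of other cell types in the level of Lama2 was not tested. Lama2 had no row in GFP-intermediate aHSCs, and whether the fractions differ was not tested.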

How the data were processed

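RNA of sorted hepatic stellate cell fractions was sequenced on an Illumina HiSeq. Per the methods of the study, reads were mapped with bowtie 2 and compared with Cuffdiff2, and the submitters' processing notes name TopHat2 2.0.3, Cufflinks 2.0.1, DESeq2, mm9 and mm10 without saying which was used where. For every gene and group the authors deposited a single FPKM, so replicates were already combined, and each table was normalised on its own. The authors also deposited log2 fold changes, p-values and q-values, of which only the q-values were read, to check that every named row lay below 0.05. The FPKM were the same, to 6 decimals, in both kinds of deposited file.

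Log2 ratios of group FPKM were computed without a pseudocount. The tests planned for values per sample could not be run, so no test was made and no error is given. The members and the gene lists were chosen with earlier results of these data known. The genes named are the 6 chains, in each list the most abundant rows and the highest and lowest ratio with an FPKM of at least 1, and the 3 rows nearest to each chain. Any other gene is said to have been named after its value was seen, apart from defining markers and the other chains. Alternatives were pseudocounts of 1 and 0.1, ratios relative to the median of all rows or of a marker list, an FPKM of at least 1, a 2-fold minimum and rows that name 1 gene. Positions came from GENCODE vM21 and promoters from RefSeq (GRCm38.p6). Rows with a position but no gene name were left out (108 for GFP-high and 149 for GFP-intermediate aHSCs). The calculations were checked on values with known ratios. Python 3.11.15, pandas 2.3.3, numpy 2.4.6 and matplotlib 3.10.9 were used.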

Additional observations from a re-analysis of the deposited data

How the results depend on the processing

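The numbers of chains higher and lower stayed at 4 and 2 under an FPKM minimum of 1, a 2-fold minimum and rows naming 1 gene, and the same held for the single row of GFP-high aHSCs. Of 33 alternative log2 ratios 1 changed sign and 22 moved by over 1.5-fold. Relative to the median of all rows the log2 ratios were 0.96 for Col4a1, 0.91 for Col4a2, 1.01 for Lama4, 0.71 for Lamb2, -2.82 for Lamb1, -3.23 for Lama2 and, in GFP-high aHSCs, 1.84 for Lama2. Relative to the stellate marker list they were 2.76 for Col4a1, 2.70 for Col4a2, 2.80 for Lama4, 2.50 for Lamb2, -1.03 for Lamb1 and -1.44 for Lama2. Relative to the endothelial marker list they were 0.16 for Col4a1, 0.10 for Col4a2, 0.20 for Lama4, -0.096 for Lamb2, -3.63 for Lamb1 and -4.03 for Lama2, so that only Lamb2 turned. These shifts follow from the subtraction itself. A pseudocount of 1 gave -1.36 for Lama2 and -1.57 for Lamb1 in qHSCs. In GFP-high aHSCs it gave 1.02 for Lama2 (2.75 with a pseudocount of 0.1). In label-positive cells it gave ratios of 44.3 for Lama4 to Lama2, 44.0 for Lamb2 to Lamb1 and 0.646 for Lama2 to Lamb1. The last was then above the 0.561 of label-negative cells. These shifts arise because the values are low.

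No paired analysis was possible because the deposited FPKM combine the 3 animals of each qHSC group, and no replicate could be left out for the same reason. The depth and the spread between animals are unknown, so the precision of every value is unknown too. Of 198 alternative counts of list genes, 5 moved by over 1.5 times.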

Other observations

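Although none of the 6 chains had a row in GFP-intermediate aHSCs, genes around them did. Over all rows with a gene name in that table, 263 of 419 were lower after deletion. Mmp2 was higher in WT1-deleted cells, with an FPKM of 19.5 and 82.8 (control first), and Mmp7, which cuts laminin and other matrix proteins, had 1.45 and 8.96. Of the 6 enzyme genes with a row 4 were lower, a share near that over all rows, with Mmp12 at 551 and 40.3, Mmp9 at 20.7 and 7.30, Plau at 36.2 and 12.7 and Ctss at 1799 and 486. The lysyl oxidase gene Lox had 28.1 and 62.7, the basement membrane component Fbln1 had 43.3 and 95.3, and the heparan sulphate proteoglycan gene Sdc1 had 101 and 44.6. Macrophage markers had 7 rows there, 1 of which names C1qb and C1qc together, and all 7 were lower after deletion, with a summed FPKM of 3079 and 715. All 3 endothelial markers with a row were lower too, with a summed FPKM of 174 and 48.8. The other 18 of 21 had no row. Stab1 had 120 and 30.8, Mrc1 had 36.1 and 9.88, and Cdh5 had 17.9 and 8.09. The log2 ratios of Stab1 and Mrc1, at -1.97 and -1.87, lay inside the macrophage marker range of -2.36 to -1.42. That of Cdh5, at -1.15, did not. Of 4 stellate markers with a row 3 were higher, and the cholangiocyte markers Cldn4, Epcam and Sox9 were all higher, with a median log2 ratio of 2.13. The part of these cell types in the levels of the enzymes was not tested.

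Lists of other cell types that could lie beside a basement membrane were also read in qHSCs. Of 12 mesothelial genes 9 had a row, each of them higher with the lineage label, where 50.4% of all rows were higher. The summed FPKM of the 9 was 66.0 and 197, of which Podxl made up 48.3 and 145. Msln was at 1.65 and 4.67 and Upk3b at 2.26 and 5.98. Of 10 vascular smooth muscle genes 3 had a row, all higher, with Acta2, Tagln and Cnn1 without one. Of 8 cholangiocyte genes 3 had a row, all higher, with Epcam, Krt7 and Krt19 without one.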
